A study of Mus musculus with 19 samples.

Results

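Notch signaling was examined through 8 genes of the pathway in the ocular surface of mice on calorie restriction: the receptors *Notch1*, *Notch2* and *Notch3*, the ligands *Jag1*, *Jag2* and *Dll1*, and the target genes *Hes1* and *Hey1*. They were taken by symbol from the gene tables of the cornea and the conjunctiva, each of which held 24552 genes, and all 8 were listed in both. The 19 RNA sequencing libraries came from female C57BL/6 mice (C57BL/6 J in the methods), with 5 cornea libraries from mice fed ad libitum (AL), 5 cornea libraries from mice on calorie restriction (CR), 4 AL conjunctiva libraries and 5 CR conjunctiva libraries. No genetic change is named for any group, and diet was the only treatment. By the study's methods, AL mice always had food, while CR mice were stepped down to a reduced ration given once a day just before the dark phase, so the amount of food and the time of feeding changed together. The methods describe cohorts at separate sites on different chow, without saying which gave these libraries. In 1 of them the CR chow also held more vitamins and micronutrients than the AL chow. All titles bear the tags 6M and 50W, which the labels do not explain. The series' design text calls the mice young, whereas the methods start the diet at an age above that of the mice they class as young and below that of those they class as middle-aged. Corneal epithelium was scraped and conjunctiva was excised whole, and several tissues were taken from each mouse, so a cornea and a conjunctiva library can come from 1 animal.

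Notch receptors are cut by furin on their way to the cell surface and are bound there by Jagged or Delta-like ligands of a neighboring cell. Binding exposes the receptor to ADAM metalloproteases and then to gamma-secretase, which releases the intracellular domain. That domain enters the nucleus, joins the DNA-binding protein RBPJ and Mastermind coactivators, and turns on target genes such as *Hes1*, *Hey1* and the feedback inhibitor *Nrarp*. In stratified epithelia such as the cornea and conjunctiva, Notch signaling is known for its part in differentiation, barrier upkeep and, in the conjunctiva, goblet cells and mucins. In blood vessels, the endothelium and the smooth muscle cells around it use *Dll4*, *Notch4*, *Hey1*, *Hey2* and *Heyl*.

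The promoters of the ligand and the receptor that moved furthest in the cornea are shown first, as the stretch in which the letters bound by RBPJ can be looked for. Each line holds the 250 bases before an annotated start, 5′ to 3′ on the strand of the gene, from RefSeq on build GRCm38.p6. *Notch1* (gene identifier 18128) lies on the minus strand at chr2:26457902-26503822 and *Dll1* (13388) on the minus strand at chr17:15367354-15376932, where 2 starts are listed. *Nrarp*, on the plus strand at chr2:25180758-25183339, is added as a direct target of the pathway. Capitals in its window mark the E-box CACGTG, not letters bound by RBPJ. Of the other members, *Notch2* lies at chr3:98013538-98150367, *Notch3* at chr17:32120820-32166896, *Jag1* at chr2:137081451-137116520, *Jag2* at chr12:112907803-112929812, *Hes1* at chr16:30065357-30067796 and *Hey1* at chr3:8663359-8667038, and all 8 are protein-coding.
Notch1 (chr2:26503823-26504072): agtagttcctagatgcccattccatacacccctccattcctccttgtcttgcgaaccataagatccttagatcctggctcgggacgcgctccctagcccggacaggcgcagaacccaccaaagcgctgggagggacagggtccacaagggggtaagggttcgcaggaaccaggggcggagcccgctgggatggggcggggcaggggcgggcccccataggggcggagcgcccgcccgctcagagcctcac
Dll1, inner start (chr17:15375824-15376073): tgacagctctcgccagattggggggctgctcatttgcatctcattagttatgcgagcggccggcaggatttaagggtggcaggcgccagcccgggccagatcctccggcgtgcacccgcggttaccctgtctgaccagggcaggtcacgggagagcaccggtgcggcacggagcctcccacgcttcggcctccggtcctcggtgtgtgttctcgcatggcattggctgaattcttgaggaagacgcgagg
Dll1, outer start (chr17:15376933-15377182): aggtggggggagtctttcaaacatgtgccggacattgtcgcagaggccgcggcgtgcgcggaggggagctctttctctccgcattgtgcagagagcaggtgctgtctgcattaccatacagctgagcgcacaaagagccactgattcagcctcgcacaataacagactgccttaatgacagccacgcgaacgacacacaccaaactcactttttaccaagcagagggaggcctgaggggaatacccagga
Nrarp (chr2:25180508-25180757): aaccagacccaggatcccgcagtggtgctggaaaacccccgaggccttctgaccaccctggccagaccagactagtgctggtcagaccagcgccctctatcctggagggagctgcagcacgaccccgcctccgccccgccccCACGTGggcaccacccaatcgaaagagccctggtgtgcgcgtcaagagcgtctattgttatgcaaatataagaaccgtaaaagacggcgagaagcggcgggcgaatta

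These windows were searched on both strands for TGGGAA, the core letters bound by RBPJ, for GTGGGAA, a longer form that contains TGGGAA, and for the E-box CACGTG, which reads the same on both strands. Of 32851 RefSeq promoters of the same length, 21.6% held TGGGAA, 5.42% held GTGGGAA and 6.02% held CACGTG. The windows of *Notch1*, *Notch2*, *Notch3*, *Jag1*, *Jag2* and both windows of *Dll1* held none of the 3 motifs. *Hes1* and *Hey1* are not in the table of promoters. The *Nrarp* window held 1 CACGTG, 108 bases before the start, and none of the others. G and C made up 66.0% of the *Notch1* window, 64.0% and 56.0% of the *Dll1* windows and 87.2% of the *Jag2* window, against a median of 52.4% over all promoters. A match describes letters only.

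Values are normalized counts, which are reads per gene divided by the authors' size factor of the library, and each tissue was scaled in its own table. The 10 cornea libraries held 10354125 to 14681223 counted reads and the 9 conjunctiva libraries 10726717 to 14433441. A count of 0 allows for up to 3 reads, or 2.27 to 3.37 normalized counts by library, and intervals and floors cover counting error only. The share of genes without a read was higher in the CR corneas, at 44.4% ± 3.06 (SD, n = 5) against 40.5% ± 2.70 (SD, n = 5) in the AL corneas, with AL replicate 4 (45.2%) and CR replicate 1 (39.9%) lying away from their own diet. Markers of the corneal epithelium and of goblet cells fitted the labelled tissues. *Krt12*, the keratin of the corneal epithelium, stood at 306448 ± 19768 normalized counts in the AL corneas and at 3006 ± 1702 in the AL conjunctivas, and *Muc5ac*, the goblet cell mucin, at 12.9 ± 17.7 and 4515 ± 1014. The 4 markers of conjunctival epithelium were not higher in the conjunctiva. They summed to 98977 to 136874 in the AL corneas and to 53463 to 99701 in the AL conjunctivas. The conjunctiva also held RNA of fibroblasts, vessels, macrophages and skeletal muscle. In such bulk samples fewer cells of a type and less RNA per cell cannot be told apart.

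In the cornea, *Dll1* and *Notch1* rose on CR and the other members did not pass the test. *Dll1* encodes a Delta-like ligand and *Notch1* the main Notch receptor of stratified epithelia. The AL corneas held 110.0, 121, 96.0, 179 and 106 normalized counts of *Dll1* in replicates 1 to 5. The CR corneas held 197, 293, 233, 197 and 189 in replicates 1, 2, 3, 4 and 7. All CR values lay above all AL values, and AL replicate 4 stood well above the other AL corneas. The means were 122 ± 32.7 (SD, n = 5) and 222 ± 43.4 (SD, n = 5), and the fitted log2 change, CR minus AL, was 0.87 with an SE of 0.20 (limma, adjusted p = 0.0386), a 1.83-fold rise.

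For *Notch1* the AL corneas held 1129.9, 1095, 1107, 1374 and 1006 normalized counts. The CR corneas held 1638, 2098, 1852, 1261 and 1763. In 4 of 5 CR corneas *Notch1* exceeded every AL cornea, and CR replicate 4 fell below AL replicate 4. The means were 1142 ± 138 and 1722 ± 308 (SD, n = 5 each), with a log2 change of 0.58 and an SE of 0.13 (limma, adjusted p = 0.0340). The fold of 1.49 fell just short of the 1.5 that a call also needed.

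Of the 7 members tested in the cornea, 1 was called at an adjusted p under 0.05 with a fold over 1.5, and over all 12278 genes tested the share called was 1.22%. At the adjusted p alone 2 of 7 members passed, against 1.53% of all genes, and the same 2 were those with an unadjusted p under 0.05, which 18.1% of all genes reached. The diets did not overlap in 1 of 7 members, *Dll1*, and in 3.97% of all genes. The median log2 change of the 7 was 0.30, with 6 higher and 1 lower, while the median of all genes tested was -0.03.

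The other receptors of the cornea, *Notch2* and *Notch3*, overlapped between diets. *Notch2* ranged from 519 to 909 normalized counts in the AL corneas and from 699 to 1028 in the CR corneas, with a log2 change of 0.28 (95% interval -0.028 to 0.58). *Notch3* ranged from 1207 to 1523 and from 881 to 1536, with a log2 change of -0.16 (95% interval -0.44 to 0.12). *Notch3* was the 1 member of the 7 with a negative estimate, and CR replicate 7 at 881 was its lowest value.

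Of the Jagged ligands, *Jag2* was nearly level in the AL corneas and more spread in the CR corneas. *Jag2* held 220.0, 211, 211, 233 and 181 normalized counts in the AL corneas. In the CR corneas it held 380.0, 268, 199, 196 and 296. CR replicates 1, 2 and 7 stood above every AL cornea and CR replicates 3 and 4 lay within the AL range, and the coefficient of variation was 9.07% on AL and 28.5% on CR. The log2 change was 0.30 (95% interval -0.089 to 0.69, limma, adjusted p = 0.404). *Jag1* ranged from 1314 to 1724 on AL and from 1469 to 2000.1 on CR, with a log2 change of 0.18 (95% interval -0.056 to 0.43).

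The target genes *Hes1* and *Hey1* encode transcriptional repressors. *Hes1* held 7614, 5983, 6108, 8015 and 5527 normalized counts in the AL corneas. In the CR corneas it held 5956, 11994, 8699.8, 6850.2 and 9537. CR replicates 2, 3 and 7 lay above every AL cornea, while CR replicates 1 and 4 lay within the AL range. The log2 change of *Hes1* was 0.34 with a 95% interval of -0.014 to 0.70 (limma, adjusted p = 0.297). *Hey1* had 5 reads in the 10 corneas together, 3 of them in CR replicate 1, and was not tested there.

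**Figure D1:**
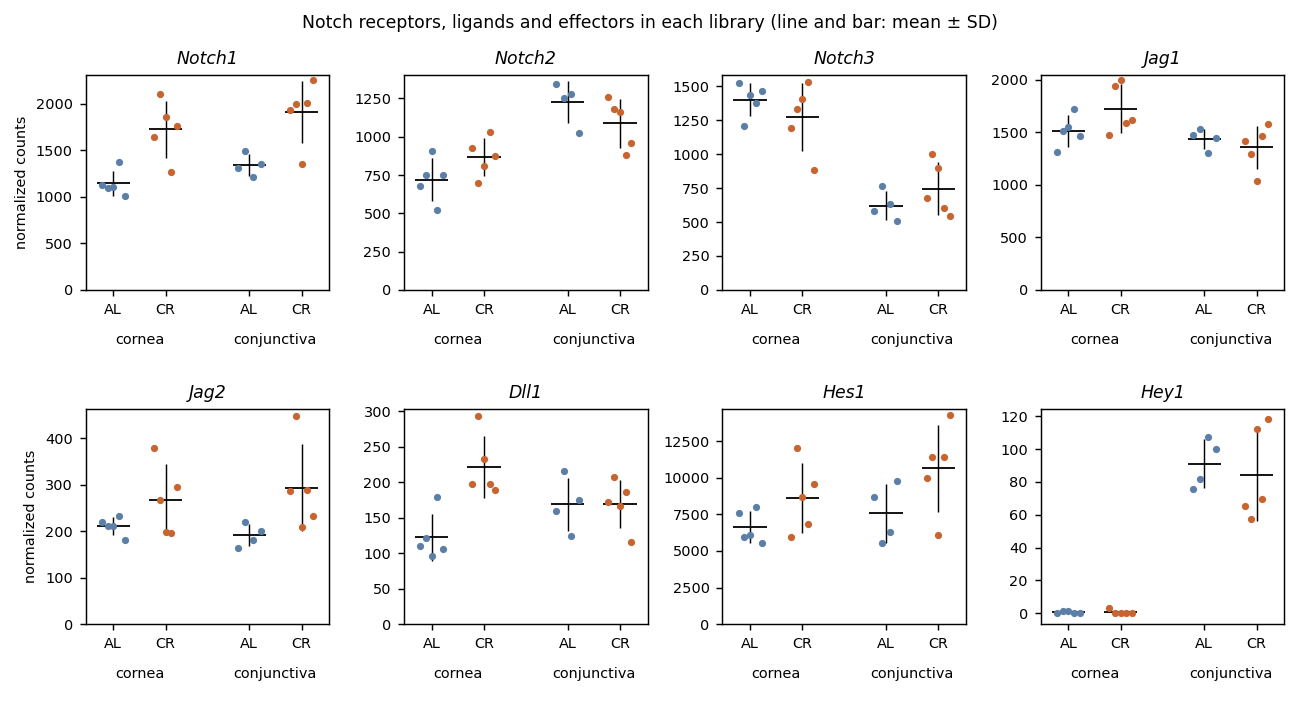
Normalized counts (y axis, linear, from 0) of the 8 Notch genes in each AL and CR library of the cornea and conjunctiva, 1 point per library, with the mean as a line and the SD as a bar. In the cornea the *Dll1* points of the diets do not overlap, *Notch1* of 4 of 5 CR libraries lies above all AL libraries in each tissue, and *Hey1* is at or near 0 in the cornea.

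Library features moved with diet in the cornea. When the percentage of genes without a read entered the fit as a covariate, the log2 change was 0.39 for *Notch1* (limma, adjusted p = 0.210) and 0.62 for *Dll1* (adjusted p = 0.262), so neither passed. The estimates of *Hes1*, *Jag1* and *Notch3* shrank to 0.021, 0.033 and -0.079, while those of *Notch2* and *Jag2* grew to 0.51 and 0.36. Lacrimal gland transcripts, summed over 5 markers, ran from 19.5 to 23193 normalized counts in the AL corneas and from 1.52 to 13.1 in the CR corneas, with the highest value in AL replicate 1 and the marker *Lcn11* at 0 in all 5 CR corneas. Without that library the log2 changes were 0.58 for *Notch1* and 0.84 for *Dll1*, about as large as with it, though their adjusted p-values rose to 0.0876 and 0.106. Macrophage markers, 7 in all, summed to 279 to 382 on AL and 127 to 282 on CR, and their part in the change was not tested. The sum of 5 corneal epithelial markers overlapped between diets, at 565125 to 666787 and 470354 to 695373.

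In the conjunctiva no member passed the test, and *Notch1* and *Jag2* had the smallest p-values. *Notch1* held 1313, 1495, 1215 and 1346 normalized counts in AL replicates 1, 3, 4 and 5. In CR replicates 1 to 5 it held 1934, 2001, 1347, 2006 and 2249.6. Again 4 of 5 CR libraries exceeded every AL library, and CR replicate 3 lay within the AL range. The means were 1342 ± 116 (SD, n = 4) and 1908 ± 336 (SD, n = 5), with a log2 change of 0.49 and an SE of 0.15 (limma, unadjusted p = 0.00577, adjusted p = 0.256).

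*Jag2* held 165, 221, 181 and 201 normalized counts in the AL conjunctivas. In the CR conjunctivas it held 286, 449, 209, 289.9 and 234. CR replicate 3 was again the lowest of its diet and the only CR value inside the AL range. The log2 change was 0.57 with an SE of 0.22 (limma, unadjusted p = 0.0196, adjusted p = 0.397).

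*Hes1* held 8659.9, 5530.0, 6274 and 9794 normalized counts in the AL conjunctivas. In the CR conjunctivas it held 9999.7, 11377, 6074, 11429.9 and 14254. All CR values but that of replicate 3 lay above the AL values, and the log2 change of 0.48 had a 95% interval of -0.031 to 0.98 (limma, adjusted p = 0.547). With the percentage of genes without a read as a covariate, the log2 change of *Hes1* was 0.13. *Dll1*, the ligand called in the cornea, was close to level between diets here, with 160.0, 215, 125 and 174 normalized counts on AL. On CR it held 172, 207, 166, 186 and 115. The means of 169 ± 37.5 (SD, n = 4) and 169.5 ± 34.3 (SD, n = 5) gave a log2 change of 0.008 with a 95% interval of -0.48 to 0.50.

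The remaining members of the conjunctiva overlapped between diets. *Notch2* ranged from 1028 to 1343 normalized counts on AL and from 882 to 1262 on CR, with a log2 change of -0.18. *Notch3* ranged from 505 to 766 and from 545 to 1000.4, with a log2 change of 0.24. *Jag1* ranged from 1303 to 1528 and from 1031 to 1574, with a log2 change of -0.097. Their adjusted p-values (limma) lay between 0.742 and 0.882. *Hey1* held 75.6, 81.9, 108 and 99.9 normalized counts on AL and 65.3, 57.1, 112, 69.7 and 119 on CR. CR replicates 1, 2 and 4 lay below every AL library and CR replicates 3 and 5 above every one, and the log2 change was -0.16 (95% interval -0.78 to 0.47).

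Of the 8 members tested in the conjunctiva, 0 were called with limma, at both thresholds and at the adjusted p alone, against 0.359% of all 13929 genes under either rule. At an unadjusted p under 0.05, 2 of 8 members passed, against 9.4% of all genes. The diets overlapped in all 8, while they did not overlap in 3.87% of all genes. The median log2 change was 0.12, with 5 higher and 3 lower, and the median of all genes was -0.02.

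CR replicate 3 of the conjunctiva differed from the other CR conjunctivas in some of its tissue markers as well. Its 5 corneal epithelial markers summed to 85191 normalized counts, the lowest of the 9 libraries. Its 5 skeletal muscle markers summed to 104562, the highest of the 9, and its 7 endothelial markers to 2242, also the highest. Its mural, fibroblast and goblet sums, at 24189, 42422 and 4319, lay within the range of the other CR conjunctivas. CR replicate 5, with the highest *Notch1* and *Hes1*, had the highest sum of the corneal epithelial markers, at 126253 and the lowest endothelial sum of 585. The 4 markers of conjunctival epithelium were also lowest in CR replicate 3, at 46144, but were highest in CR replicate 4, at 109782. They came next in AL replicate 5, at 99701, with CR replicate 5 at 89811. Without CR replicate 3, *Notch1* passed with a log2 change of 0.61 (limma, adjusted p = 0.0362) and 1 member was called. Fibroblast markers, 8 in all, summed to 39843 to 59626 on AL and 26195 to 51684 on CR, and 7 macrophage markers to 2792 to 3664 and 1754 to 2609. The part of these cells in the members' values was not tested.

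The difference between the tissues was tested as the log2 change of the cornea minus that of the conjunctiva, with Satterthwaite degrees of freedom. Of the 7 members tested in both, 0 passed after adjustment, against 0.0168% of 11929 genes (2 genes). At an unadjusted p under 0.05, 2 of 7 passed, against 7.48% of all genes. *Dll1* had a difference of 0.86 with a 95% interval of 0.24 to 1.48 (limma estimates, unadjusted p = 0.00842, adjusted p = 0.487). *Notch2* had a difference of 0.46 with a 95% interval of 0.034 to 0.88 (unadjusted p = 0.0351, adjusted p = 0.644, limma estimates), being estimated higher on CR in the cornea and lower in the conjunctiva. For *Notch1* the difference was 0.09, with a 95% interval of -0.32 to 0.50, so that passing the test in 1 tissue and not in the other was not shown to be a difference between them. These values took the libraries of the tissues as independent. With the difference taken within each of the 8 pairs of libraries whose titles share a diet and number, 0 of 7 members had an unadjusted p under 0.05 (limma), against 5.79% of all genes, and 0 passed after adjustment. The estimates were then 0.79 for *Dll1* (unadjusted p = 0.0536, limma) and 0.43 for *Notch2* (unadjusted p = 0.184, limma).

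**Figure D2:**
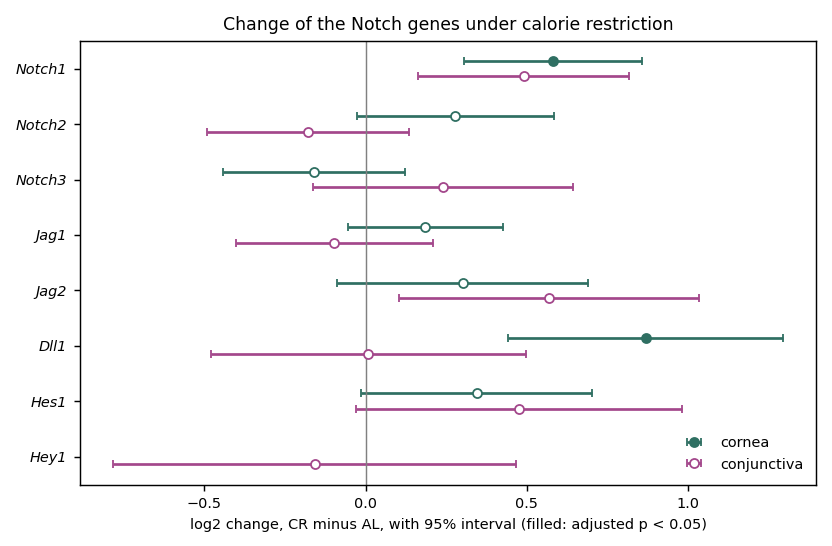
Log2 change, CR minus AL (x axis), of each Notch gene with its 95% interval, in the cornea and in the conjunctiva, with filled points at an adjusted p under 0.05. *Notch1* and *Dll1* of the cornea are filled, the *Notch1* intervals of both tissues lie above 0 and overlap widely, and *Hey1* was tested in the conjunctiva only.

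The rest of the pathway was followed in 66 further genes grouped by role, of which 50 had enough reads for a test in the cornea. Of these, 0 were called with limma at both thresholds, against 1.22% of all genes, and 1 passed at the adjusted p alone, against 1.53%. An unadjusted p under 0.05 was reached by 8 of 50, against 18.1% of all genes. The median log2 change was 0.08, with 30 higher and 20 lower. The gene that passed, *Adam17*, encodes a sheddase that can cut Notch receptors along with many other surface proteins, and it fell. The AL corneas held 1075, 1246, 1027, 961 and 1125 normalized counts of *Adam17*. The CR corneas held 773, 805, 838, 815 and 619. The diets did not overlap, and the log2 change was -0.50 with an SE of 0.12 (limma, adjusted p = 0.0409). *Adam10*, the main protease of ligand-driven Notch cleavage, had a log2 change of 0.038 (95% interval -0.20 to 0.28), and the 9 tested genes of receptor cleavage split into 5 higher and 4 lower.

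Of 9 tested genes of receptor trafficking and turnover, 7 were estimated higher and 2 lower. An unadjusted p under 0.05 was reached by 4 of the 9, against 18.1% of all genes, and no difference between role groups was tested. *Nrarp*, the ankyrin repeat protein that is induced by Notch and promotes loss of its intracellular domain, held 532, 706, 521, 909 and 589 normalized counts on AL. On CR it held 782, 967, 1019.8, 931 and 945. In 4 of 5 CR corneas *Nrarp* lay above every AL cornea, with AL replicate 4 reaching into the CR range, and the log2 change was 0.54 (limma, adjusted p = 0.0706). *Dtx4*, a Deltex ubiquitin ligase, held 72.6, 85.2, 129, 38.0 and 102 on AL. On CR it held 42.7, 15.1, 29.5, 36.8 and 8.36. Only AL replicate 4 reached down into the CR range, and the log2 change was -1.75 (limma, adjusted p = 0.0531). With the percentage of genes without a read as a covariate, the log2 changes were 0.29 for *Nrarp* and -0.85 for *Dtx4*. *Numbl* and *Itch*, which act on receptor endocytosis and ubiquitination, had log2 changes of 0.59 and 0.34 with adjusted p-values of 0.233 and 0.240 (limma).

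No gene of the nuclear complex passed at the adjusted p in the cornea. *Rbpj*, the DNA-binding partner of all Notch receptors, had a log2 change of -0.098 (95% interval -0.45 to 0.25). The Mastermind coactivators *Maml1*, *Maml2* and *Maml3* had log2 changes of 0.55, -0.21 and -0.024. *Kat2b*, a histone acetyltransferase of the complex, had 0.52 (limma, adjusted p = 0.119). Among 12 corepressors, 7 were higher and 5 lower with a median log2 change of 0.06. *Tle2*, a Groucho family corepressor with few reads, had the most negative estimate at -1.84 (95% interval -3.60 to -0.082, limma, adjusted p = 0.256). Its values in CR replicates 4 and 7, at 14.3 and 26.9 normalized counts, lay within the AL range of 13.3 to 29.9. The 5 tested genes of ligand endocytosis had a median of 0.12 and the 4 of receptor glycosylation a median of -0.24, with no gene of either at an unadjusted p under 0.05.

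**Figure D3:**
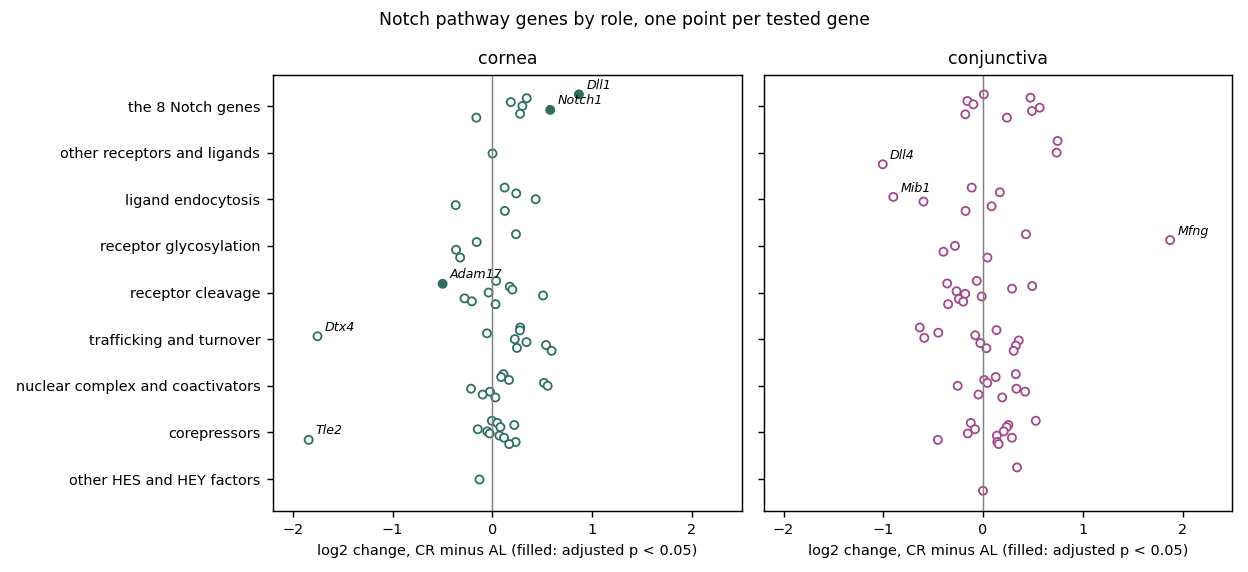
Log2 change, CR minus AL (x axis), of every tested Notch pathway gene, 1 point per gene, in rows by role, with the cornea on the left and the conjunctiva on the right and filled points at an adjusted p under 0.05. Filled points are *Dll1*, *Notch1* and *Adam17* in the cornea and none in the conjunctiva.

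In the conjunctiva 57 of the 66 further genes were tested. Of these, 0 were called with limma at either threshold, against 0.359% of all genes. An unadjusted p under 0.05 was reached by 11 of 57, against 9.4% of all genes, and the diets did not overlap in 5 of 57, against 3.87%. Those 5 were *Aph1a* and *Fbxw7*, higher on CR, and *Dtx4*, *Furin* and *Poglut1*, lower on CR. Of the 10 genes of receptor cleavage, 2 were estimated higher and 8 lower, and no difference between role groups was tested. The median log2 change was 0.03, with 30 higher and 27 lower. *Dlk2*, a non-canonical Delta-like protein, held 327, 254, 202 and 176 normalized counts on AL. On CR it held 463, 534, 307, 324 and 366. Its log2 change of 0.74 was the smallest p among the genes estimated higher (limma, adjusted p = 0.209). *Cir1*, an RBPJ-interacting corepressor, and *Aph1a*, a gamma-secretase subunit, had log2 changes of 0.53 and 0.49 with adjusted p-values of 0.254 and 0.262 (limma).

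Among the genes estimated lower in the conjunctiva, *Dtx4* held 295, 298, 393 and 331 normalized counts on AL. On CR it held 259, 217, 238, 128 and 281. The diets did not overlap, and the log2 change was -0.59 (limma, adjusted p = 0.383), with the same sign as in the cornea. *Mib1* and *Mib2*, the Mindbomb ubiquitin ligases that drive ligand endocytosis in the sending cell, had log2 changes of -0.90 and -0.60 with adjusted p-values of 0.421 and 0.395 (limma). In the cornea *Mib1* was estimated at 0.43 and *Mib2* at -0.37, and neither passed there. *Adam17* was estimated at -0.36 in the conjunctiva (limma, adjusted p = 0.501), with 3 of 5 CR libraries under every AL library.

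Several Notch genes linked to blood vessels were at or near 0 in the cornea and present in the conjunctiva. The conjunctiva held 91.3 ± 15.0 normalized counts of *Hey1* on AL and 40.8 ± 18.9 of *Heyl*, and the cornea libraries held 0 to 3.29 of *Hey1*. *Heyl* and *Hey2* had 0 reads in all 10 corneas. *Dll4* had 3 reads in the 10 corneas and 27.6 ± 6.95 normalized counts in the AL conjunctivas against 16.4 ± 10.2 in the CR conjunctivas, where its log2 change was -1.01 (95% interval -2.42 to 0.41). *Mfng*, a Fringe enzyme that adds sugars to Notch receptors, had 5 reads in the 10 corneas. In the conjunctiva *Mfng* held 11.3, 3.37, 37.7 and 0 normalized counts on AL. On CR it held 25.3, 15.2, 33.8, 22.5 and 25.5. Its log2 change there was 1.88, with low and spread AL values, and did not reach an unadjusted p under 0.05 (limma). *Notch4* and *Hey2* had too few reads for a test in either tissue. The levels come from tables scaled apart and no test was made between tissues.

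The cell markers of vessels showed the same division, which was not particular to vessels. In the AL corneas fibroblast markers summed to 930 to 1900 and skeletal muscle markers to 0.884 to 15.4. In the AL conjunctivas they summed to 39843 to 59626 and 10518 to 46862. The 7 endothelial markers summed to 22.1 to 47.0 normalized counts in the AL corneas and 7.15 to 64.6 in the CR corneas, with *Cdh5*, *Tek* and *Emcn* never above 3 reads in a library. In the conjunctiva they summed to 1385 to 2050.5 on AL and 585 to 2242 on CR. The 6 mural cell markers, of which *Des* had 0 reads in all 10 corneas, summed to 52.2 to 118 and 14.1 to 109.5 in the cornea and to 12120.4 to 33537 and 10207 to 25384 in the conjunctiva. Both vessel sums overlapped between diets in the conjunctiva, as *Hey1* did. CR replicate 5 of the conjunctiva had the lowest endothelial and mural sums, at 585 and 10207. It had the highest *Hey1* at 119, and *Heyl* at 54.3 was under only AL replicate 1 at 60.3. *Dll4* was lowest in CR replicate 5, at 2.22. The cells that gave the RNA of these genes were not tested.

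**Figure D4:**
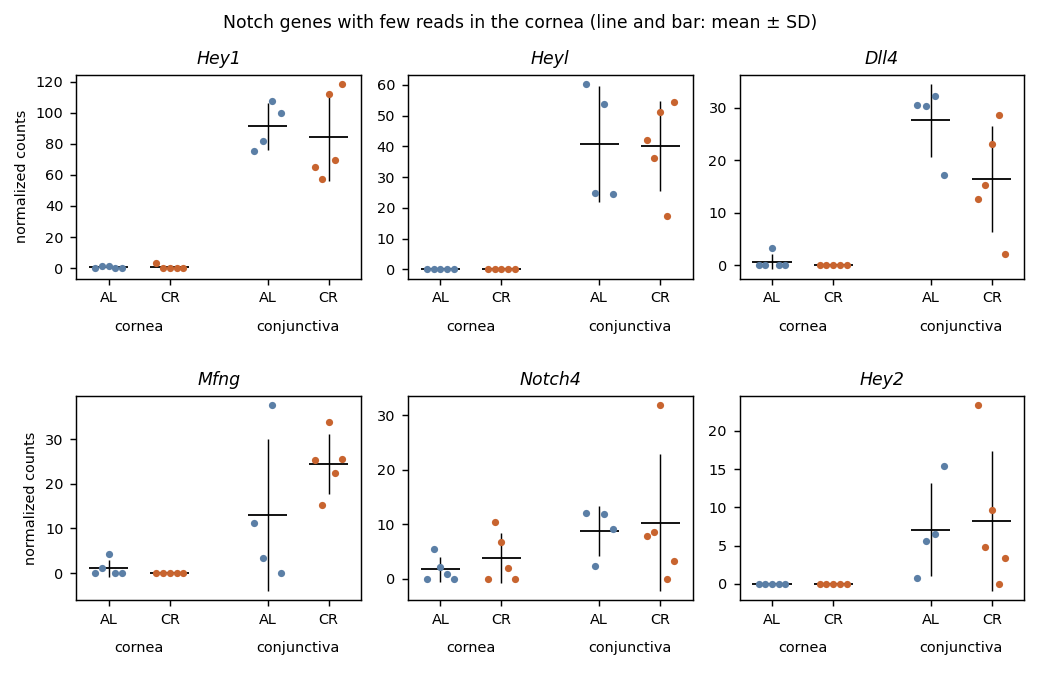
Normalized counts (y axis, linear) of *Hey1*, *Heyl*, *Dll4*, *Mfng*, *Notch4* and *Hey2* in each AL and CR library, 1 point per library, with the mean as a line and the SD as a bar. *Heyl* and *Hey2* are at 0 in all 10 corneas, and the AL and CR points overlap in the conjunctiva for all 6 genes.

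Genes of epithelial layers that Notch signaling is known to act on were counted beside the pathway. Of 8 basal layer genes tested in the cornea, 1 was called with limma, against 1.22% of all genes, and 2 passed at the adjusted p alone, against 1.53%. Of the 8, 6 were estimated higher and 2 lower, with a median log2 change of 0.30. An unadjusted p under 0.05 was reached by 5 of the 8, against 18.1% of all genes. The largest estimate was that of *Myc*, with a log2 change of 1.26, which did not pass at the adjusted p. *Ccnd1*, the cyclin that drives entry into the cell cycle, stood at 8189 ± 823 normalized counts on AL and 14846 ± 1802 on CR (SD, n = 5 each). Every CR cornea exceeded every AL cornea, and *Ccnd1* rose 1.81-fold (log2 change 0.86, limma, adjusted p = 2.51e-04). *Trp63*, the master regulator of stratified epithelia, rose from 731 ± 84.1 to 1025 ± 117 with no overlap (log2 change 0.49, limma, adjusted p = 0.0468), under the fold of 1.5. The basal keratins *Krt5*, *Krt14* and *Krt15* had log2 changes of 0.024, -0.15 and -0.088. Of 8 differentiation genes tested, 5 were estimated higher and 3 lower, with a median log2 change of 0.054. Of these, 0 passed at the adjusted p (limma) and 1 had an unadjusted p under 0.05, against 18.1% of all genes. That gene was *Krt4*, a keratin of mucosal epithelia, with a log2 change of 0.96 (limma, adjusted p = 0.137). *Krt1* had a log2 change of 0.72, *Krt12* of -0.23 and the envelope gene *Ivl* of -0.62, and none of these passed.

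In the conjunctiva 0 of 16 genes on these epithelial lists were called with limma, against 0.359% of all genes, and 2 had an unadjusted p under 0.05, against 9.4%. *Ccnd1* stood at 6572 ± 936 on AL (SD, n = 4) and 10461 ± 2037 on CR (SD, n = 5). The diets did not overlap, and the log2 change was 0.66 (limma, adjusted p = 0.112). *Trp63* had a log2 change of 0.15 there (95% interval -0.19 to 0.49).

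The genes most like each member were taken as those with the highest mean Pearson r of log2 values over the 10 cornea and the 9 conjunctiva libraries among 11929 genes, as a description, since libraries share diet, depth and tissue makeup. *Notch1* ran closest to *Lrrfip2* (mean r 0.933), *Ifi202b* (0.931) and *Pwwp2a* (0.924). *Hes1* ran closest to *Xrn1* (0.919), *Mical3* (0.897) and *Usp46* (0.896). *Dll1* ran closest to *Card10* (0.855), *Itga3* (0.841) and *Slc7a5* (0.837). *Jag1* ran closest to *Dsc3* (0.851), *Ddx3x* (0.840) and *Kit* (0.831), and *Jag2* to *Tns3* (0.811), *Golim4* (0.801) and *Hivep2* (0.796). *Notch2* ran closest to *Gnptg* (0.815), *Tbc1d1* (0.791) and *Nbdy* (0.777), and *Notch3* to *Orai3* (0.834), *Cog7* (0.804) and *BC024978* (0.803). No other member was among these 3 for any of the 7.

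How firmly *Notch1* and *Dll1* of the cornea passed varied with the setting, while both stayed higher on CR in every fit. *Notch1* passed at the adjusted p in 7 of 10 other settings and in 4 of 10 fits that left out a library, with log2 changes of 0.39 to 0.63 and of 0.50 to 0.69. *Dll1* passed in 6 of 10 and in 4 of 10, with log2 changes of 0.62 to 1.01 and of 0.76 to 1.01. Both passed without AL replicate 4, CR replicate 1, CR replicate 4 or CR replicate 7, and neither passed without any other library, where adjusted p-values reached 0.115 for *Notch1* and 0.119 for *Dll1* (limma). *Adam17* and *Trp63* of the cornea each passed in 6 of 10 other settings and in 3 of 10 fits without a library, and *Ccnd1* in 10 of 10 and 10 of 10. Exons of *Notch1*, *Notch3*, *Dll1* and *Nrarp* overlap other genes on the opposite strand, and those of *Notch2* a gene on its own strand, so their counts are uncertain to the extent that the counting did not separate them.

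**Figure D5:**
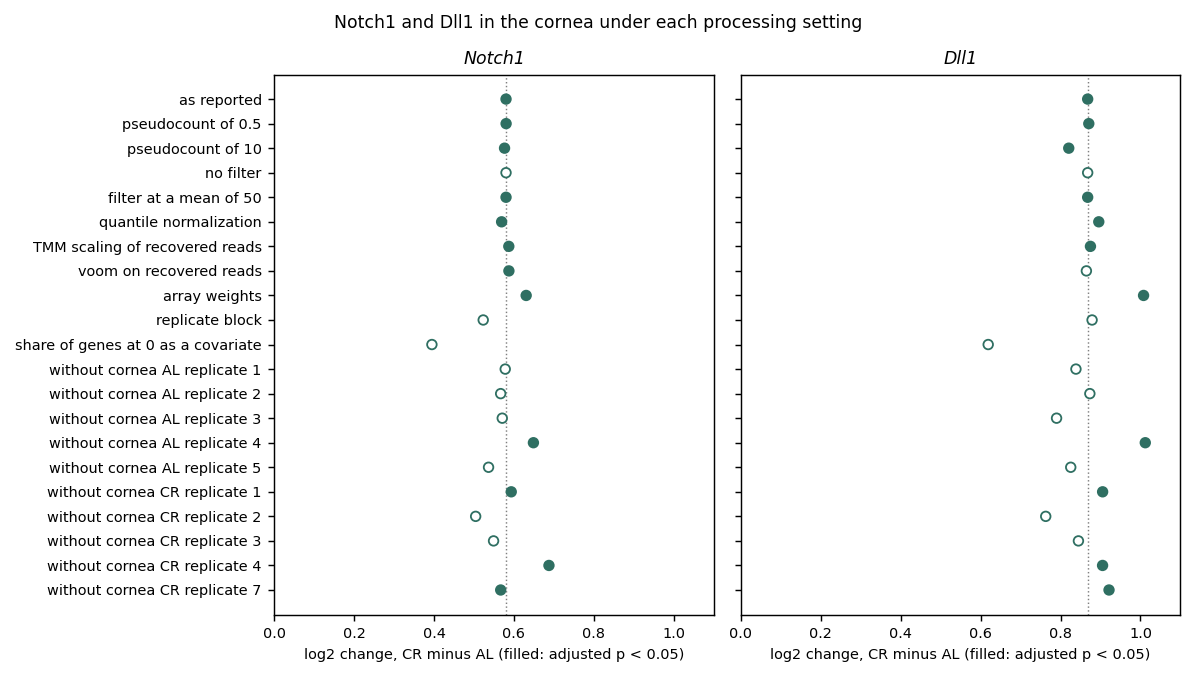
Log2 change, CR minus AL (x axis), of *Notch1* and *Dll1* in the cornea under the reported setting and each alternative, with filled points at an adjusted p under 0.05 and the reported value as a dotted line. All points of both genes lie above 0, and the lowest of each gene comes from the fit that took the percentage of genes without a read into account.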

How the data were processed

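RNA of 19 cornea and conjunctiva samples was compared by diet within each tissue. By their methods, the authors trimmed single reads with cutadapt, aligned them to mm10 with STAR, counted them with HTSeq and scaled them with DESeq2 size factors, with no versions stated. The submitters' processing notes list GRCm39. The labels name a stranded mRNA kit and the methods an oligo(dT)-primed one, so the library type and the use of strand are unsettled, and levels were not compared between genes. A figure legend of the study reverses the conjunctiva group sizes, and the labels were followed. The deposited values are log2 of the authors' normalized count plus 1, scaled per tissue. They were turned back into normalized counts and whole reads, and 100% came out whole within 0.01. Of 24557 features, 5 repeated a symbol and were left out.

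Diets were compared with limma 3.58.1 (statmod 1.5.0, R 4.3.3) on log2(normalized count + 1), with a trend and robust moderation, over genes averaging 10 or more normalized counts. Calls needed a Benjamini-Hochberg adjusted p under 0.05 and a fold over 1.5. Fold changes on this scale understate the change of low genes. The procedure was tested on simulated data. The labels do not say that samples of a group came from separate animals, while the study's figure legends count them as mice. The p-values measure the spread between these samples. Neither the labels nor the methods say that a replicate number pairs an AL with a CR mouse, and the main fit did not pair them. All members were named, with other pathway and epithelial genes that were called or had the 3 smallest p-values in a direction, as far as they were under 0.05; further genes were named after their values were seen. The members and lists were chosen with earlier results of these data known. Positions are from GENCODE M21 and RefSeq.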

Additional observations from a re-analysis of the deposited data

How the results depend on the processing

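The 1 member called in the cornea became 0 without the filter, 0 when the percentage of genes without a read was a covariate, 2 with TMM scaling of the recovered reads, 2 with array weights and 2 at the adjusted p alone. Leaving out 1 cornea library gave 0 to 2, with 0 without AL replicates 1, 2, 3 or 5 or CR replicates 2 or 3, and 2 (*Notch1* and *Dll1*) without AL replicate 4, CR replicate 1 or CR replicate 4. With voom the count was 1, but the gene was *Notch1* in place of *Dll1*. The 0 members called in the conjunctiva became 0 to 1 on leaving out a library, with 1 (*Notch1*) without CR replicate 3. The 0 further pathway genes called in the cornea became 1 at a pseudocount of 10 (*Dtx4*), 2 with array weights (*Dtx4* and *Nrarp*) and 0 to 3 on leaving out a library, with 3 without AL replicate 4, 2 without CR replicate 1 and 1 without CR replicate 4. The counts of further pathway genes in the conjunctiva and of members differing between tissues were 0 throughout. The replicate block treated AL and CR libraries of the same number as paired, a pairing that is not stated for these mice. Same-numbered AL and CR libraries were weakly correlated (cornea -0.297 to 0.288, conjunctiva -0.0619 to 0.0526). With 4 pairs per tissue, these correlations cannot decide whether the numbers pair mice. With this block the cornea count of members was 0. Over all genes, cornea calls fell from 150 to 46 and conjunctiva calls from 50 to 10. The other counts of members and pathway genes were 0 with the block. Over all genes of the cornea, calls ran from 53 without AL replicate 5 to 536 without AL replicate 4, and were 705 with array weights; the cause was not tested. Among 665 alternatives of 34 single-gene results, 613 kept their side of the threshold, 41 lost it, 11 gained it and 0 reversed a call. Most of the results had not passed and so had no pass to lose. All 41 losses were of *Notch1*, *Dll1*, *Adam17* and *Trp63* in the cornea.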
